A study of Sus scrofa with 8 samples.

Results

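The data describe 10 growth genes of immature olfactory neurons in the olfactory epithelium of newborn pigs, and ask whether their expression differs when CFTR is missing. CFTR is the anion channel of epithelia whose loss causes cystic fibrosis. The genes, chosen by symbol, are GAP43, GNG8, DPYSL3, DPYSL5, CRMP1, STMN2, STMN4, DCX, TUBB3 and ELAVL4. All 10 were matched to an Ensembl pig identifier, out of 25880 pig genes in the table, and all 10 passed the filter on low counts. The groups were 4 newborn CFTR knockout piglets (numbered 6, 18, 20 and 21) and 4 newborn wild-type piglets (numbered 5, 9, 12 and 23), with 1 RNA-seq library of snap-frozen olfactory epithelium from each. Neither the breed, the litter nor the way the CFTR gene was disrupted is given in the labels, and no treatment is named.

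Olfactory sensory neurons are replaced throughout life from basal progenitors. A newly born neuron extends an axon toward the olfactory bulb before it makes the full odour transduction machinery, and in rodents this stage is marked by GAP43 and by the G protein gamma subunit GNG8. The other genes act in growing neurons, as a tubulin (TUBB3), as regulators of microtubules and of the growth cone, or as an RNA-binding protein (ELAVL4). Whether they are limited to that stage was not tested here. In bulk tissue, fewer cells of a type and less RNA per cell cannot be told apart.

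Libraries held 39915150 to 43253395 counts in knockout piglets and 30836904 to 42281883 in wild-type piglets. CFTR was 5.24 to 8.37 CPM (counts scaled to library size by the TMM method) in knockout piglets and 34.03 to 56.6 CPM in wild-type piglets. The cyclic nucleotide-gated channel gene CNGA2, which defines mature olfactory neurons, was 412 to 512 CPM in knockout and 231 to 411 CPM in wild-type piglets. The 15 matched markers of other neurons summed to 618 to 838 CPM in knockout and 445 to 651 CPM in wild-type piglets, most of it SCN9A, a sodium channel that olfactory neurons also use, at 706 ± 89.2 CPM in knockout and 487 ± 98.6 CPM in wild-type piglets (SD, n = 4 each). Each of the others was low but most were detected. ISL1, a transcription factor of sensory and motor neurons, was highest, at 2.93 to 6.60 CPM in knockout and 6.46 to 13.3 CPM in wild-type piglets. The neurofilament gene NEFL was 0.912 to 5.69 CPM in knockout and 1.12 to 3.10 CPM in wild-type piglets, the neuropeptide gene TAC1 1.06 to 3.76 CPM and 0.884 to 3.17 CPM, and DBH, of noradrenaline synthesis, 1.21 to 1.77 CPM and 0.846 to 1.23 CPM. TH, of catecholamine synthesis, was at no more than 0.0836 CPM in knockout piglets and at 0 in wild-type piglets. The part of other neurons in the values of the growth genes was not tested. The 9 supporting (sustentacular) cell markers summed to 3093 to 4323 CPM in knockout and 3380.4 to 4166 CPM in wild-type piglets, and the 9 muscle markers to 309 to 386 CPM and 309.8 to 521 CPM. Knockout piglet 18 stood apart in connective tissue and bone genes, whose 10 matched members summed to 42140 CPM there, against 1188 to 2080 CPM in the other knockout piglets and 1657 to 5074 CPM in wild-type piglets. Wild-type piglet 5 had the lowest sum of mature neuron markers, 4201 CPM against 5166 to 7291 CPM in the other 7 libraries.

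No difference between the groups passed the test for any of the 10 growth genes, which does not show that their levels were equal. By edgeR's quasi-likelihood test with Benjamini-Hochberg adjustment over 17175 genes, 0 of 10 were called at 0.05, with a smallest adjusted p of 0.455 for DCX, and none had an unadjusted p under 0.05. Over all genes tested, 1 was called (0.00582%), which was CFTR, and 1924 had an unadjusted p under 0.05 (11.2%, of which 5.36% were higher and 5.84% lower in knockout piglets). DESeq2 called 219 genes (1.31%, with 0.502% higher and 0.806% lower) and limma with sample quality weights 11 (0.064%, with 0.0175% higher and 0.0466% lower), in each case with none of the 10 among them. At an unadjusted p under 0.05, DCX was higher in DESeq2, where 6.3% of all genes were higher and 6.65% lower (13% in all). In limma DCX was higher and GAP43 and GNG8 were lower at that level, which 22.6% of all genes passed, 11.9% higher and 10.7% lower. The median log2 fold change, knockout over wild-type, was 0.05 over the 10 genes and 0.01 over all genes tested, and 6 of the 10 were positive, against 51.6% of all genes tested. Among the 3665 genes at least as abundant as the lowest of the 10, the median was 0.04 and 58.4% were positive. In 0 of 10 genes did the groups separate without overlap, against 5.81% of all genes tested. Summed over the 10 genes, expression was 4337 ± 260 CPM in knockout and 4187 ± 422 CPM in wild-type piglets (SD, n = 4 each).

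The size of difference that these data leave possible was limited for most of the genes, much as for other genes of like abundance. For 8 of the 10, all except DCX and STMN4, the 95% interval of the edgeR fold change lay within 1.5-fold either way. The same held for 52.2% of all genes tested and for 83.5% of the 3665 genes at least as abundant as the lowest of the 10.

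**Figure D1:**
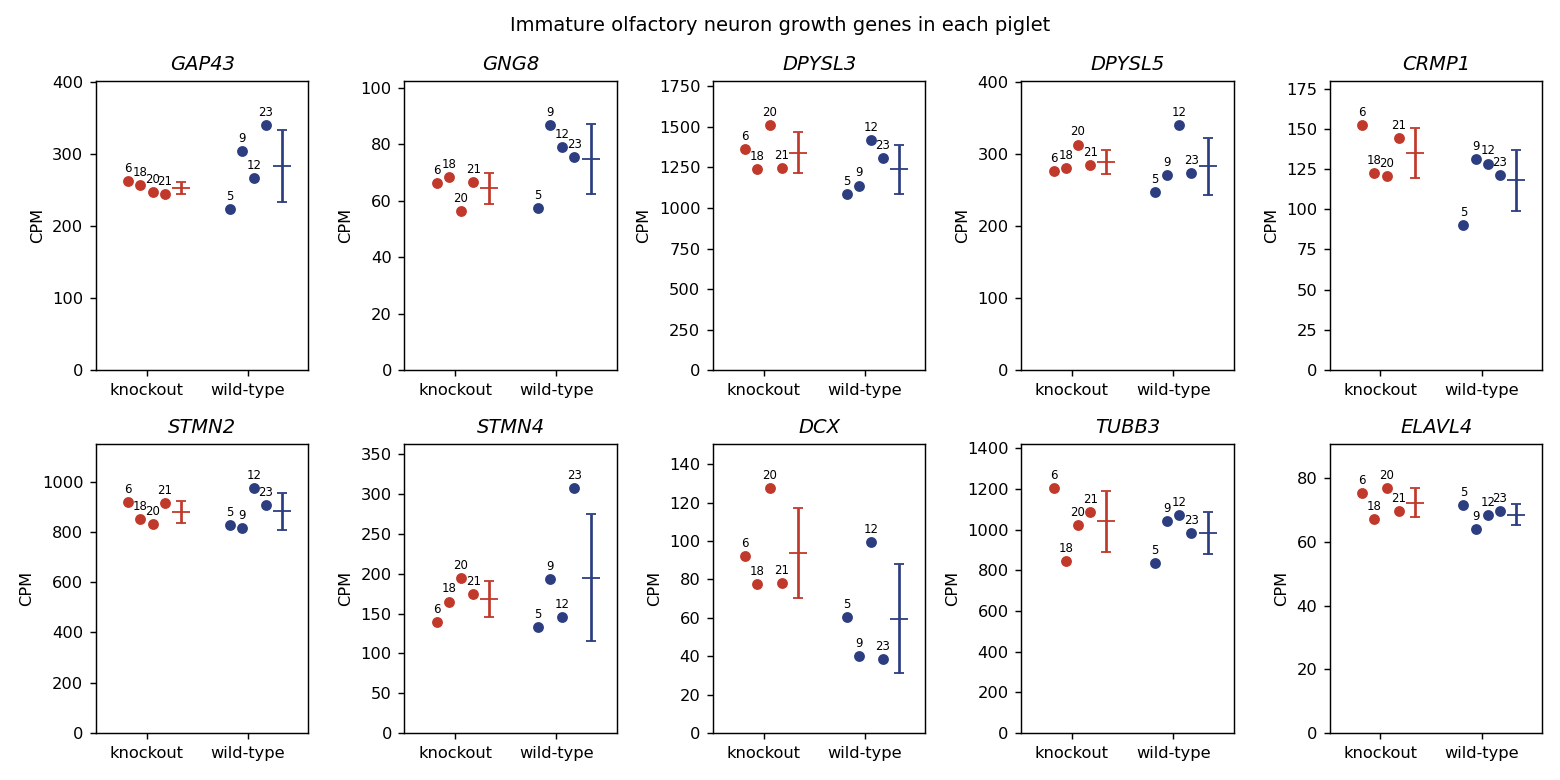
TMM-scaled CPM of each of the 10 genes (y axes, from 0) in 4 knockout (red) and 4 wild-type (blue) piglets, labelled by piglet number. Horizontal marks and bars are the mean and SD. The groups overlap in every panel, and DCX spans 38.3 to 128 CPM while STMN2 spans 817 to 976 CPM.

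GAP43 encodes a membrane-bound phosphoprotein of the growth cone and is the classical marker of the immature olfactory neuron. Its gene (ENSSSCG00000031244) lies on chromosome 13, 144361490 to 144457938 on the minus strand (coordinates as deposited, with no build named), with 3 exon blocks. GAP43 was 263, 257, 248 and 244 CPM in knockout piglets 6, 18, 20 and 21, and 224, 305, 267 and 341 CPM in wild-type piglets 5, 9, 12 and 23. All 4 knockout values fell inside the wild-type range, and they lay closer together, with a coefficient of variation of 3.38% in knockout against 17.7% in wild-type piglets. The log2 fold change was -0.17 ± 0.12 (SE, 95% interval -0.45 to 0.11, edgeR adjusted p = 0.589). It was -0.27 when wild-type piglet 5 was left out and -0.067 when wild-type piglet 23 was left out. Ensheathing glia can also make GAP43, and their 13 matched markers summed to 520.4 to 731 CPM in knockout and 451 to 658 CPM in wild-type piglets. Of their log2 fold changes 11 of 13 were negative and 2 positive, where 51.6% of all genes tested were positive. NGFR, a receptor of these glia, was 16.5 ± 2.70 CPM in knockout and 38.0 ± 4.24 CPM in wild-type piglets (SD, n = 4 each, edgeR adjusted p = 0.0696). The NGFR groups did not overlap, the case in 1 of the 13 genes and in 5.81% of all genes tested. PTN, in the same list and its sums, went the other way. It was 263 ± 61.8 CPM in knockout and 166 ± 45.6 CPM in wild-type piglets (SD, n = 4 each, edgeR adjusted p = 0.385). The part of glia in the GAP43 values was not tested. An unnamed gene on the opposite strand shared 528 exonic bases with GAP43 and had 12 to 26 reads in knockout and 14 to 42 in wild-type piglets. No strand setting for the counting is given in the labels or headers.

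GNG8 encodes the gamma subunit that, in rodents, accompanies immature and vomeronasal neurons. It lies on chromosome 6, 52535026 to 52535662 on the minus strand (ENSSSCG00000022068), with 2 exon blocks of 213 bases in all. GNG8 was 66.2, 68.5, 56.3 and 66.8 CPM in knockout piglets 6, 18, 20 and 21, and 57.5, 86.8, 79.1 and 75.6 CPM in wild-type piglets 5, 9, 12 and 23. Wild-type piglets 9, 12 and 23 were above every knockout piglet, while wild-type piglet 5 was near the lowest value, that of knockout piglet 20. The log2 fold change was -0.21 ± 0.13 (SE, 95% interval -0.50 to 0.07) and did not pass (edgeR adjusted p = 0.519). It was -0.33 when wild-type piglet 5 was left out and -0.13 when wild-type piglet 9 was left out. With a trend on exonic length removed in each library it was -0.076. With presence of Y-linked reads as a covariate it was -0.047. Only wild-type piglets 9 and 12 had such reads, so that value rests on the knockout piglets against wild-type piglets 5 and 23 alone. GNG13, the gamma subunit of mature olfactory neurons, had a log2 fold change of 0.04 ± 0.18 (SE).

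The collapsin response mediator proteins bind tubulin and steer the growth cone, and 3 of the 10 genes belong to this family. DPYSL3 (ENSSSCG00000036549) lies on chromosome 2, 148662051 to 148855649 on the minus strand, in 16 exon blocks, and was the most counted of the 10 genes. It was 1363, 1238, 1510.4 and 1248 CPM in knockout piglets 6, 18, 20 and 21, and 1087, 1138, 1416.5 and 1309 CPM in wild-type piglets 5, 9, 12 and 23. Knockout piglet 20 alone was above the wild-type range. DPYSL5 (ENSSSCG00000008560) lies on chromosome 3, 112155542 to 112252968 on the minus strand, and was 276, 281, 313 and 284 CPM in the knockout piglets and 247, 271, 340.3 and 274 CPM in the wild-type piglets, in the same order. CRMP1 (ENSSSCG00000022896) lies on chromosome 8, 4733329 to 4805890 on the plus strand.

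CRMP1 was 152, 123, 121 and 144 CPM in knockout piglets 6, 18, 20 and 21, and 90.1, 132, 128 and 122 CPM in wild-type piglets 5, 9, 12 and 23. Wild-type piglet 5 was lowest in all 3 of these genes, and for CRMP1 the other 3 wild-type piglets lay among the knockout values. The log2 fold changes were 0.11 ± 0.12 for DPYSL3, 0.028 ± 0.11 for DPYSL5 and 0.20 ± 0.13 for CRMP1 (SE, edgeR adjusted p = 0.699, 0.923 and 0.560). Without wild-type piglet 5, the CRMP1 log2 fold change was 0.08. The upper ends of the 95% intervals corresponded to a 1.30-fold, 1.21-fold and 1.41-fold higher level in knockout piglets.

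Stathmins release tubulin from microtubule ends, and the neuronal members STMN2 and STMN4 are anchored to membranes of the growing axon. STMN2 (ENSSSCG00000006160) lies on chromosome 4, 56952709 to 57006661 on the minus strand, with 5 exon blocks. STMN2 was 919, 853, 831 and 916 CPM in knockout piglets 6, 18, 20 and 21, and 828, 817, 976 and 909 CPM in wild-type piglets 5, 9, 12 and 23. Its highest library was 1.19 times its lowest, and the groups were close to equal, with a log2 fold change of -0.0046 ± 0.093 (SE, 95% interval -0.21 to 0.20, edgeR adjusted p = 0.988).

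STMN4 (ENSSSCG00000009662) lies on chromosome 14, 10987180 to 11007628 on the minus strand, with 9 exon blocks. STMN4 was 139.8, 165, 194 and 175 CPM in knockout piglets 6, 18, 20 and 21, and 133, 193, 146 and 308 CPM in wild-type piglets 5, 9, 12 and 23. Wild-type piglet 23 stood well above the other 7 libraries. The log2 fold change was -0.21 ± 0.25 (SE, 95% interval -0.77 to 0.35, edgeR adjusted p = 0.737), and its sign turned without wild-type piglet 23, to 0.10. STMN2 in the same wild-type piglet was 909 CPM, inside the range of the other libraries.

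DCX encodes doublecortin, a microtubule-binding protein of young and migrating neurons, on the X chromosome (ENSSSCG00000012585, 91323817 to 91444294 on the minus strand, 7 exon blocks). DCX was 92.3, 77.7, 128 and 78.1 CPM in knockout piglets 6, 18, 20 and 21, and 60.3, 40.3, 99.4 and 38.3 CPM in wild-type piglets 5, 9, 12 and 23. The knockout piglets were above 3 of the 4 wild-type piglets, and wild-type piglet 12 was above 3 of the 4 knockout piglets. The mean was 94.0 ± 23.5 CPM in knockout and 59.6 ± 28.4 CPM in wild-type piglets (SD, n = 4 each). The log2 fold change was 0.66 ± 0.31 (SE) and did not pass (unadjusted p = 0.0619, edgeR adjusted p = 0.455). Its 95% interval, from a 0.972-fold to a 2.56-fold level in knockout piglets, was the widest of the 10 genes. The log2 fold change stayed positive with any 1 library left out, at 0.47 to 1.02, and its size moved most with 3 of them. It was 1.02 when wild-type piglet 12 was left out, 0.49 when wild-type piglet 23 was left out and 0.47 when knockout piglet 20 was left out (edgeR adjusted p = 0.103, 0.677 and 0.628).

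The Y-linked genes (EIF1AY, KDM5D) had reads in wild-type piglets 9 and 12 and 0 reads in the other 6 libraries. DCX was low in 1 of these piglets and high in the other, and with the presence of such reads as a covariate its log2 fold change was 0.93 (edgeR adjusted p = 0.448). No knockout piglet had such reads, so sex and genotype are partly confounded. With this covariate the fold change rests on the knockout piglets against wild-type piglets 5 and 23 alone. The doublecortin-like kinases DCLK1, DCLK2 and DCLK3, which share its microtubule-binding domain, had log2 fold changes of 0.16 ± 0.13, 0.08 ± 0.11 and 0.20 ± 0.17 (SE), and none passed.

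TUBB3 encodes the beta tubulin of neurons and lies on chromosome 6, 168452 to 178462 on the minus strand (ENSSSCG00000002639, 4 exon blocks). TUBB3 was 1206, 848, 1023 and 1087 CPM in knockout piglets 6, 18, 20 and 21, and 838, 1045, 1073 and 982 CPM in wild-type piglets 5, 9, 12 and 23. The lowest values were those of wild-type piglet 5 and knockout piglet 18, so each group held 1 low library. The log2 fold change was 0.08 ± 0.13 (SE, edgeR adjusted p = 0.813). Beta tubulin genes are alike in sequence, and the labels and headers do not say how reads matching several genes were counted, so levels of single tubulins are uncertain.

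ELAVL4 encodes a neuronal RNA-binding protein that stabilises messages of growing neurons, GAP43 among them. Its gene lies on chromosome 6, 161786375 to 161928950 on the minus strand (ENSSSCG00000037291, 10 exon blocks). ELAVL4 was 75.3, 67.3, 77.0 and 69.8 CPM in knockout piglets 6, 18, 20 and 21, and 71.6, 63.9, 68.5 and 69.8 CPM in wild-type piglets 5, 9, 12 and 23. It was the steadiest of the 10 genes, with an SD of 0.09 on the log2 CPM scale over the 8 libraries, and its log2 fold change was 0.08 ± 0.07 (SE, 95% interval -0.08 to 0.24, edgeR adjusted p = 0.659).

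The 10 genes did not vary alike from piglet to piglet. Over all 8 libraries, the SD of log2 CPM was 0.09 for ELAVL4 and STMN2, 0.14 to 0.23 for DPYSL5, DPYSL3, TUBB3, GAP43, GNG8 and CRMP1, 0.39 for STMN4 and 0.61 for DCX. The median SD of the 3665 genes of like or higher abundance was 0.16, and 98.2% of them had a smaller SD than DCX. DCX and the pair GAP43 and STMN4 went opposite ways in wild-type piglets 9 and 23. Relative to each gene's mean over the 8 libraries, DCX was at -0.82 and -0.89 (log2) in these piglets, GAP43 at 0.20 and 0.35 and STMN4 at 0.13 and 0.81. This did not hold in every library. In wild-type piglet 5, DCX, GAP43 and STMN4 were each below their means, at -0.24, -0.25 and -0.40. In knockout piglet 20, DCX and STMN4 were both above, at 0.84 and 0.15.

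Libraries differed in how many of the genes lay below their means. In wild-type piglet 5, 9 of the 10 genes were below their own mean, ELAVL4 being the exception, and the average deviation was -0.24 (log2). In knockout piglet 18, 9 of 10 were also below, DCX being the exception, but by little, at an average of -0.05. In wild-type piglet 12, 8 of 10 were above, at an average of 0.11. The other 5 libraries were split, with 4 to 6 of the 10 above. The wild-type coefficient of variation exceeded the knockout one in 8 of the 10 genes. The same held for 60.1% of all genes tested and for 63.4% of the 3665 genes of like or higher abundance.

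**Figure D2:**
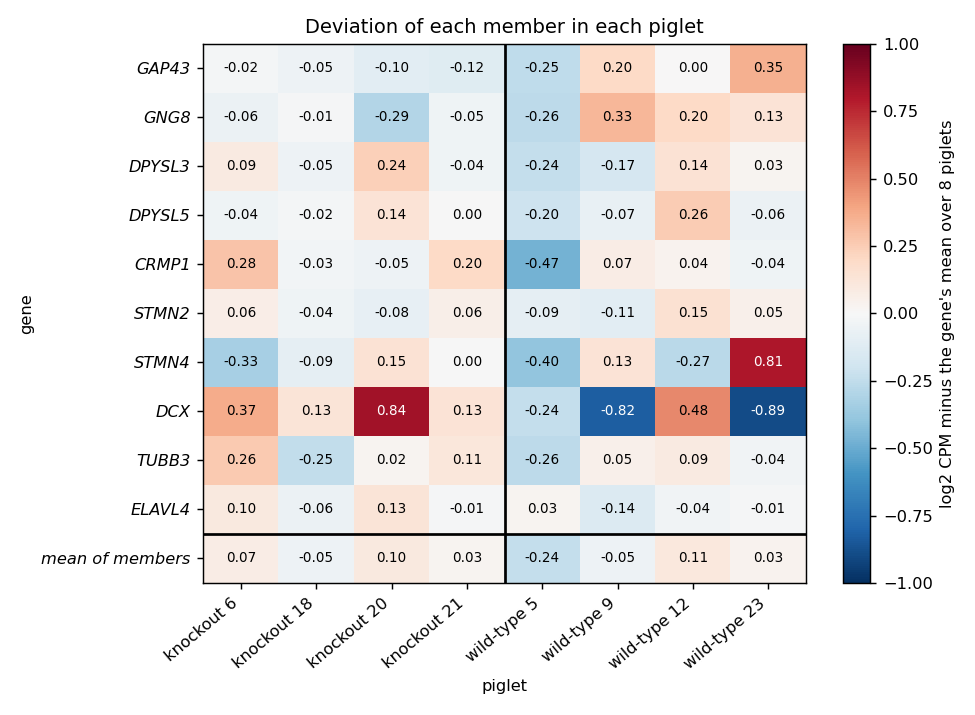
Log2 CPM of each gene minus its mean over the 8 piglets, with 4 knockout piglets on the left and 4 wild-type piglets on the right of the vertical line. The lowest row is the mean of the 10 genes. DCX (-0.89 to 0.84) and STMN4 (-0.40 to 0.81) vary most, and the column of wild-type piglet 5 is low in 9 of 10 genes.

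The genes whose profiles over the 8 libraries lay nearest to the mean of the 10, by root mean square difference of centred log2 CPM, were TMEM87B, VPS41, TGDS, CLASP2, AREL1 and KAT7, at 0.03 to 0.05. CLASP2 binds growing microtubule ends, VPS41 acts in vesicle fusion with lysosomes and KAT7 is a histone acetyltransferase. Their log2 fold changes were 0.03 to 0.13, and none passed (smallest edgeR adjusted p = 0.548). These genes were selected for their likeness to the mean of the 10 in the same libraries. Their small differences follow from that selection and are no separate result.

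**Figure D3:**
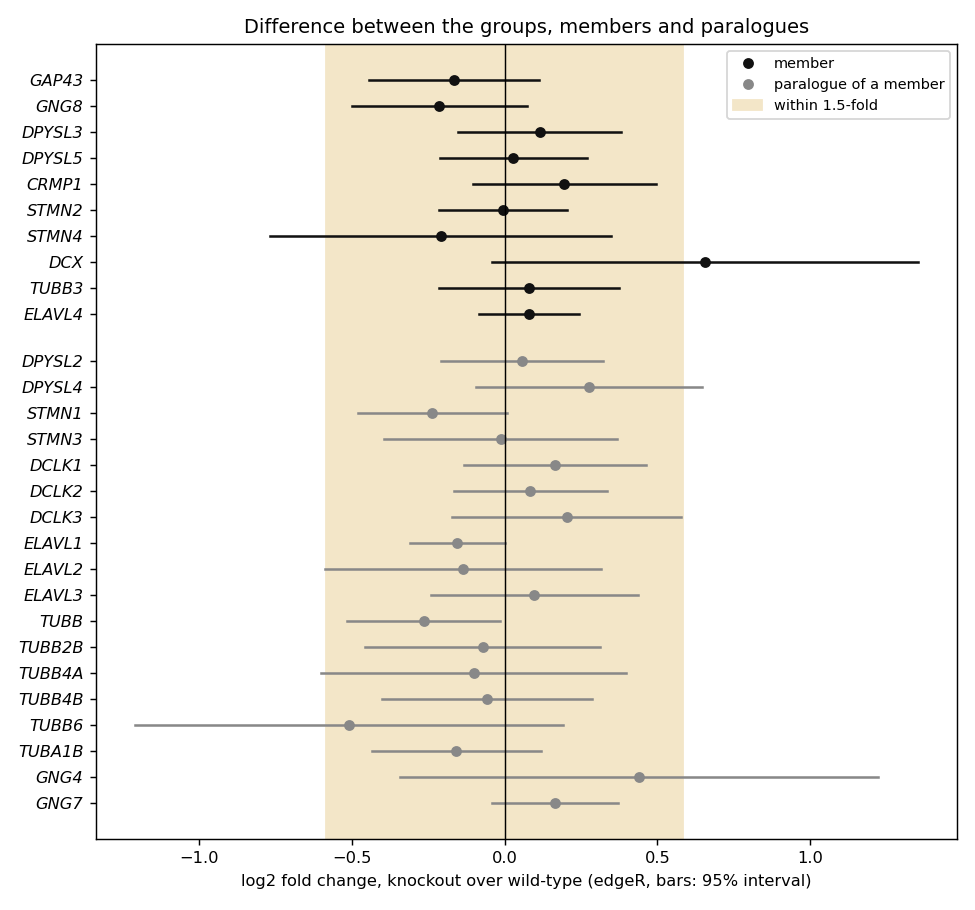
Log2 fold change, knockout over wild-type, with its 95% interval from edgeR, for the 10 genes (black) and 18 paralogues and related subunits (grey). The shaded band marks differences within 1.5-fold. The intervals of 8 of the 10 genes lie within it, and those of DCX and STMN4 reach beyond it.

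Levels between genes were compared per length, as TPM (counts divided by the deposited exonic length and scaled to the same total in each library). TPM carries no TMM scaling, so group means in TPM can differ from those in CPM. By mean TPM over the 8 libraries the order was TUBB3 (1210.5), STMN2 (1117), GNG8 (947), DPYSL3 (704), STMN4 (306), GAP43 (188), DPYSL5 (177), ELAVL4 (92.9), CRMP1 (90.5) and DCX (60.2). Neighbours in this order kept the same rank in all 8 libraries for DPYSL3 over STMN4, STMN4 over GAP43 and DPYSL5 over ELAVL4. The rank was not kept for TUBB3 over STMN2, which held in 6 libraries, for GAP43 over DPYSL5, which held in 5, or for ELAVL4 over CRMP1, which held in 4. STMN2 over GNG8, GNG8 over DPYSL3 and CRMP1 over DCX held in 7 libraries each. The rank of GNG8 rests on its short gene model of 213 bases. The growth genes were among the abundant messages of the tissue, with TUBB3 at rank 67, STMN2 at 71 and GNG8 at 86 of all genes, and the lowest, DCX, above 86.0% of detected genes.

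Among the matched genes of the collapsin response mediator, stathmin, ELAV and beta tubulin families, the same gene led in both groups. DPYSL3 made up 62.4 ± 2.51% of the collapsin response mediator TPM in knockout and 61.9 ± 2.04% in wild-type piglets (SD, n = 4 each). STMN2 made up 58.6 ± 1.78% of the stathmin TPM in knockout and 55.6 ± 5.46% in wild-type piglets, with STMN1, the stathmin of dividing cells, next at 20.7 ± 1.29% and 22.99 ± 2.42%. ELAVL4 was a minor neuronal ELAV gene, at 17.7 ± 1.001% in knockout and 17.8 ± 3.34% in wild-type piglets, below ELAVL3 at 68.6 ± 1.44% and 66.2 ± 5.78%. TUBB3 made up 48.3 ± 3.17% of the TPM of 6 beta tubulins in knockout and 44.5 ± 3.04% in wild-type piglets. TUBB2A, another beta tubulin, was not matched by symbol and is not in that total. DCX made up 36.6 ± 4.77% of doublecortin family TPM in knockout and 28.2 ± 6.87% in wild-type piglets, next to DCLK3 at 25.6 ± 4.63% and 28.4 ± 3.88%. These shares were described and not tested.

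**Figure D4:**
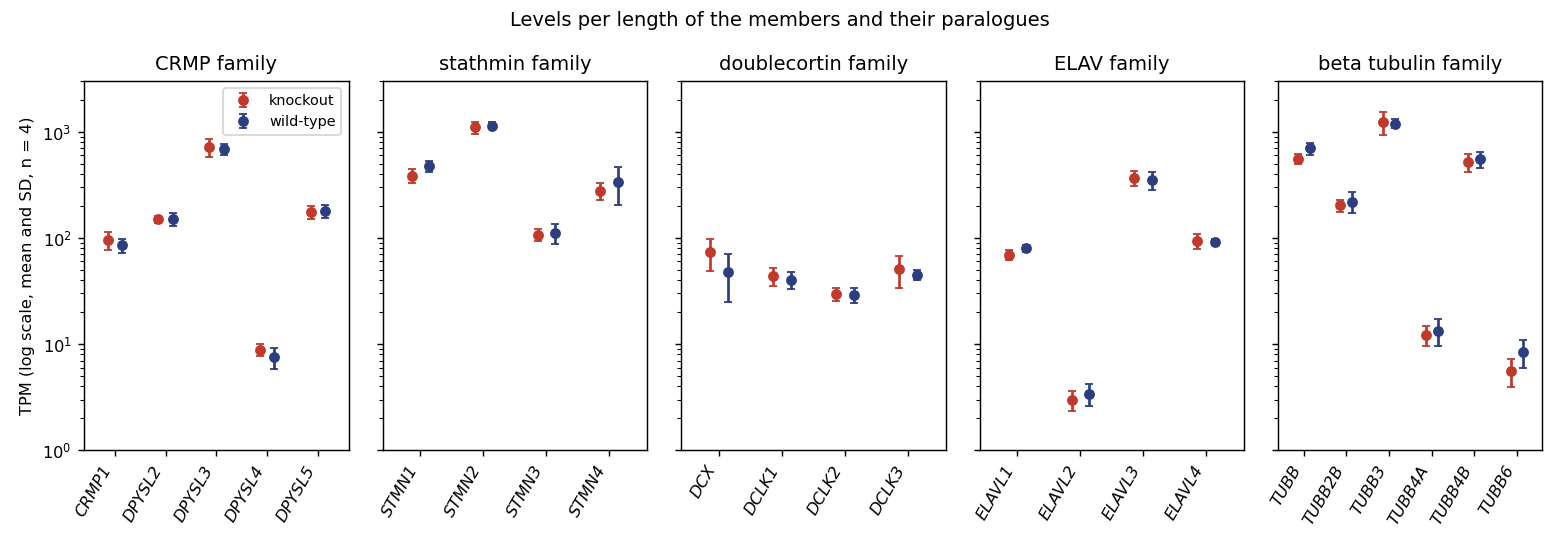
Mean TPM (log axis) with SD in 4 knockout (red) and 4 wild-type (blue) piglets for 5 families. DPYSL3, STMN2, ELAVL3 and TUBB3 lead the matched genes of their families in both groups. DCX is at 73.0 TPM in knockout and 47.4 TPM in wild-type piglets. TPM carries no TMM scaling: STMN2 is at 1097 TPM in knockout and 1138 TPM in wild-type piglets, where its CPM is 880 and 883.

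Paralogues and related subunits of the 10 genes gave no call either. Of 18 tested, 0 were called, against 0.00582% of all genes tested. With 1 gene called over the whole table, 0 calls in a list this short are no result about the list. Of the log2 fold changes 8 were positive, against 51.6% of all genes tested, and the median was -0.04. TUBB, the broadly expressed beta tubulin, was 935 ± 24.4 CPM in knockout and 1123 ± 157 CPM in wild-type piglets (SD, n = 4 each). Its log2 fold change was -0.27 ± 0.11 (SE) and did not pass (edgeR adjusted p = 0.429). ELAVL1, the ubiquitous ELAV gene, had -0.16 ± 0.07 and STMN1 had -0.24 ± 0.11 (SE, edgeR adjusted p = 0.445 and 0.451). For TUBB and ELAVL1, 2 of the 18, the 4 knockout values lay below the 4 wild-type values. The groups did not overlap in 5.81% of all genes tested. GNG7, another gamma subunit, had 0.16 ± 0.09 (SE, edgeR adjusted p = 0.504).

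Other genes of the growth cone and neurite cytoskeleton numbered 37 tested, of which 0 were called, against 0.00582% of all genes tested. The log2 fold change was positive in 28 of them, against 51.6% of all genes tested, and the median was 0.12. MAP1A, a microtubule-associated protein of neurites, was 163 ± 12.3 CPM in knockout and 125 ± 13.0 CPM in wild-type piglets (SD, n = 4 each). The MAP1A groups did not overlap, the case in 1 of the 37 genes and in 5.81% of all genes tested. Its log2 fold change of 0.38 ± 0.09 (SE) did not pass over all genes (edgeR adjusted p = 0.332). SHTN1, a growth cone clutch protein, had -0.24 ± 0.09, CNTN2, an axonal adhesion protein, had -0.20 ± 0.08, and NAV1, a microtubule-tip protein of neurites, had 0.29 ± 0.13 (SE, edgeR adjusted p = 0.406, 0.417 and 0.451).

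Transcription and RNA-binding regulators of immature olfactory neurons numbered 14 tested, of which 0 were called, against 0.00582% of all genes tested. The log2 fold change was positive in 11 of them, against 51.6% of all genes tested, and the median was 0.12. NHLH2, a neuronal helix-loop-helix factor, had a log2 fold change of 0.30 ± 0.19, ZNF423, a partner of the EBF factors, had 0.23 ± 0.18, LHX2, which olfactory neurons need to mature, had 0.14 ± 0.11, and MYT1, a neuronal zinc finger factor, had 0.15 ± 0.12 (SE). Their edgeR adjusted p lay between 0.540 and 0.633.

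The growth genes were also set against the stages before and after them, by a sum that rests mostly on DPYSL3, TUBB3 and STMN2. In knockout piglets these averaged 1340, 1041 and 880 CPM in a sum of 4337 CPM, and GAP43 and GNG8 averaged 253 and 64.4 CPM. The sum of the growth genes over that of 18 mature neuron markers was 0.698, 0.703, 0.713 and 0.617 in knockout piglets 6, 18, 20 and 21, and 0.866, 0.792, 0.630 and 0.819 in wild-type piglets 5, 9, 12 and 23. In 3 wild-type piglets the ratio was above every knockout piglet, and in wild-type piglet 12 it was below 3 of them. The mature markers had a median log2 fold change of 0.29, with 15 of 18 positive, against 51.6% of all genes tested. Of the 18, 0 were called, against 0.00582% of all genes tested. The groups did not overlap in 1 of the 18, CNGA2, and in 5.81% of all genes tested. CNGA2 was 458 ± 45.1 CPM in knockout and 329 ± 79.1 CPM in wild-type piglets (SD, n = 4 each, edgeR adjusted p = 0.405), RIC8B, an exchange factor for the olfactory G protein, had a log2 fold change of 0.44 ± 0.15, GNAL, the olfactory G protein, had 0.44 ± 0.18 and S100A5, a calcium-binding protein, had -0.51 ± 0.20 (SE, edgeR adjusted p between 0.403 and 0.418).

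Markers of globose basal cells and neuronal precursors summed to 421 to 452 CPM in knockout and 442 to 517 CPM in wild-type piglets. Over the 10 genes the median log2 fold change was -0.02 and 0 were called, against 0.00582% of all genes tested. PAX6, a progenitor transcription factor, was 47.6 ± 4.29 CPM in knockout and 62.1 ± 4.41 CPM in wild-type piglets (SD, n = 4 each, edgeR adjusted p = 0.327). The PAX6 groups did not overlap, the case in 1 of the 10 genes and in 5.81% of all genes tested. HES6, a promoter of neuronal differentiation, had a log2 fold change of -0.16 ± 0.09, EZH2, a histone methyltransferase, had -0.13 ± 0.08 and KIT, a receptor of precursors, had 0.33 ± 0.26 (SE, edgeR adjusted p between 0.489 and 0.613). The sum of the growth genes over that of the precursor markers was 8.80 to 10.3 in knockout and 7.04 to 10.3 in wild-type piglets, so the groups overlapped.

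**Figure D5:**
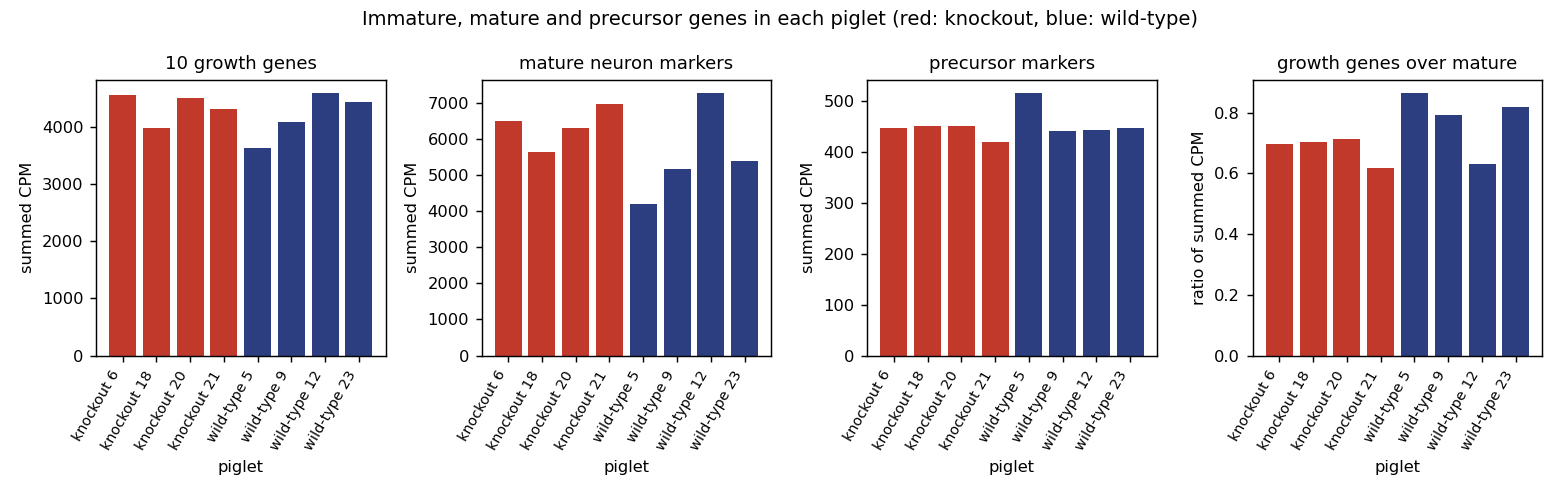
Summed CPM of the 10 growth genes, of 18 mature neuron markers and of 10 precursor markers in each piglet, and the ratio of the first sum to the second (bars from 0). The growth genes sum to 3979 to 4553 CPM in knockout piglets and 3637 to 4594 CPM in wild-type piglets.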

How the data were processed

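Raw counts of reads per gene were deposited by the authors, in a table that has featureCounts layout per the file headers, with 1 column per piglet. The submitters' processing notes name DESeq2, HTSeq, featureCounts from Subread 1.5.0-p3, STAR 2.4.0 and FastQC, without saying what each did. The genome build and the strand setting are not given in the sources used here. Per the labels' protocols, RNA was column-purified with DNase treatment and sequenced after TruSeq library preparation. The table also gives an exonic length per gene, taken as deposited in the file.

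Rows that name no pig gene (5988 of 31868) took at most 727 counts per library, leaving at least 99.9982% of reads, and were left out. Symbols came from a table of gene names, which paired 14857 of 25880 identifiers. Listed genes not matched by symbol, BASP1, SOX4, INSM1, TEX15, OMP, CNGB1, STOML3, SOX2 and MKI67 among them, were not analysed here, and some items are not reported here. Counts were fitted with edgeR 4.0.16 in R 4.3.3 (TMM, default filter, robust quasi-likelihood F test, genotype as the factor, Benjamini-Hochberg over 17175 genes, threshold 0.05). The common biological coefficient of variation came to 26.5%. Standard errors and 95% intervals were derived from the F statistic. The fit was tested on simulated data. By the labels every library is its own piglet, and no litter or batch is named.

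The members and lists were chosen with earlier results of these data known, so counts and medians over them are descriptions. Genes were named by rule: the 10 members, up to 4 genes per list with the smallest p, called genes, CFTR, and the 6 genes of at least 5 CPM nearest in profile. GNG13, DCLK1, DCLK2, DCLK3, ELAVL3, NEFL, TAC1 and TH were chosen after their values were seen. The log2 profiles used a pseudocount of 0.1 CPM. Alternatives were other normalizations and filters, DESeq2 1.42.0, limma 3.58.1 with voom and sample quality weights, a sex covariate from Y-linked reads, and libraries left out. Only wild-type piglets 9 and 12 had Y-linked reads, so fold changes with the sex covariate compare the knockout piglets with wild-type piglets 5 and 23 alone. An alternative that removes a trend on exonic length in each library was chosen after seeing the data.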

Additional observations from a re-analysis of the deposited data

How the results depend on the processing

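None of the 10 growth genes was called under any of the 18 alternatives, and their median log2 fold change, 0.05 with all libraries, was -0.018 to 0.097 with 1 library left out and -0.0006 to 0.09 in the other alternatives. The count of called genes over the whole table, 1 in the fit described, was 4 with no filter, 219 with DESeq2, 11 with limma and sample quality weights, 2 without wild-type piglet 5 and knockout piglet 18, and 0 to 19 with 1 library left out. Omitting wild-type piglet 12 gave 19, omitting wild-type piglet 5 or 9 gave 2, and omitting knockout piglet 6, knockout piglet 20 or wild-type piglet 23 gave 0. The GNG8 value, -0.21 in the fit described, was -0.047 with the sex covariate, -0.076 with the length trend removed and -0.36 without wild-type piglet 5 and knockout piglet 18. With 1 library left out, GAP43 ranged from -0.27 to -0.067, GNG8 from -0.33 to -0.13, DPYSL3 from 0.049 to 0.18, CRMP1 from 0.079 to 0.25, DCX from 0.47 to 1.02, TUBB3 from 0.0023 to 0.16 and ELAVL4 from 0.048 to 0.11. Of 180 single-gene values, 168 kept their sign and 12 turned. DPYSL5 turned to -0.026 with library totals alone and to -0.025 without wild-type piglet 5 and knockout piglet 18, with a range of -0.039 to 0.12 over the omissions of 1 library. STMN2 turned to 0.033 with limma, 0.018 with the sex covariate and 0.022 with the length trend removed, with a range of -0.042 to 0.041 over the omissions. STMN4 ranged from -0.36 to 0.10 over the omissions, positive only without wild-type piglet 23. The cause of these turns was not tested. No paired analysis was possible because the labels name no litter or other pairing of knockout with wild-type piglets. With 4 piglets a group, differences over 1.5-fold stay within the 95% intervals for DCX (higher in knockout) and STMN4 (lower in knockout).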

Other observations

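The profiles of the genes that varied most were compared with those of other genes, a choice made after their values were seen. The genes nearest to DCX over the 8 libraries were MTCL2, a microtubule crosslinking protein, ADD2, a spectrin-binding adducin, ACVR2B, an activin receptor, RFX3, a ciliary transcription factor, DSEL and STXBP5L, at root mean square differences of 0.09 to 0.16 (log2). ADD2 was 83.3, 61.8, 99.3 and 75.7 CPM in knockout piglets 6, 18, 20 and 21, and 47.7, 32.7, 93.0 and 33.9 CPM in wild-type piglets 5, 9, 12 and 23. Since these genes were selected for their likeness to DCX in the same libraries, their shared order of piglets follows from the selection and is no separate result.

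The genes nearest to STMN4 were MR1, SLC30A3, BANP, TMEM97, CXCL14 and KHDRBS3, at 0.15 to 0.18. CXCL14, a chemokine, was 64.8, 82.8, 113 and 67.3 CPM in knockout piglets 6, 18, 20 and 21, and 61.1, 109.9, 76.0 and 159 CPM in wild-type piglets 5, 9, 12 and 23. The same limit applies to them.

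The libraries differed in the balance of long and short genes. The median centred log2 CPM of genes with at least 5616 exonic bases, minus that of genes with at most 1725, was -0.05, 0.04, 0.14 and -0.06 in knockout piglets 6, 18, 20 and 21, and 0.10, -0.10, -0.01 and -0.10 in wild-type piglets 5, 9, 12 and 23. Wild-type piglets 9 and 23, where DCX was lowest, had the lowest values, and knockout piglet 20, where DCX was highest, had the highest. The other libraries did not follow this order, since wild-type piglet 5 had the second highest contrast with DCX at -0.24 (centred log2 CPM), and wild-type piglet 12 was at -0.01 with DCX at 0.48. With the trend on length removed in each library, the DCX log2 fold change was 0.66 ± 0.31 (SE, edgeR adjusted p = 0.447). DCX has 3719 exonic bases, between the limits of 1725 and 5616, where removing the trend can change a value only little. The part of length in the DCX values was therefore not tested by this fit. GNG8, with 213 exonic bases, went from a log2 fold change of -0.21 to -0.076 with the trend removed. The part of length in the GNG8 values was not tested. The 50 genes nearest to DCX had a median exonic length of 4484.5 bases, against 4369 bases for the 10669 genes compared.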
